A study of Rattus norvegicus with 105 samples.

Results

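The genes Car3, Hdc, Lgals4, Lgals1, Crip1, Bhmt and Lpl were followed through a rat hepatocyte exposure study in which culture medium and DMSO served as the negative controls. These 7 genes were chosen because their levels separated medium wells from DMSO wells, so the difference between the controls is a description here and no test of it is read. They are 7 of the 20946 gene symbols in the table, and each was read by 1 detector probe, 7 of 22253 probes. The tests of these genes below leave the control wells out and compare treated wells with each other, mostly with low nitroalkane concentrations. Which treated wells held the genes near the DMSO level and which near the medium level is described without a test.

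The cells were primary hepatocytes of female Sprague-Dawley rats from 1 commercial lot, grown on collagen in 96-well plates in Williams' E medium with serum and exposed for 24 h. RNA was read by TempO-Seq, in which a pair of short oligonucleotides is joined on the RNA of each gene and then sequenced. There were 105 libraries in 35 groups of 3. Set 1 held nitromethane (NM) and nitroethane (NE). Each was given at 8 concentrations in mM: the low ones were 0.003, 0.01, 0.03 and then 0.1, and the higher ones 0.3, 1, 3 and then 10. The same set held medium, DMSO and the reference compounds benzo[a]pyrene (BaP, 50 µM), CITCO (10 or 20 µM), rifampin (20 or 40 µM) and WY-14643 (WY, 50 µM). Set 2 held 1-nitropropane (1NP) at the same concentrations, with medium, DMSO and WY, for which the title gives 50 µM but the library names give 100. The 3 nitroalkanes carry a nitro group on a chain of growing length. BaP is a ligand of the aryl hydrocarbon receptor, CITCO of the nuclear receptor CAR (with lower potency on the rat receptor, per the protocol), rifampin of PXR and WY of PPARα. No label states if DMSO was present in the wells of nitroalkanes or reference compounds. They speak of biological replicates, but the cells were of 1 lot, so p-values measure the spread between wells.

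As background, the 7 genes belong to unrelated pathways. Car3 encodes carbonic anhydrase III, an abundant cytosolic enzyme of liver, muscle and fat with weak activity towards carbon dioxide. Bhmt encodes betaine-homocysteine methyltransferase, a liver enzyme that returns homocysteine to methionine with betaine as the methyl donor. Hdc encodes histidine decarboxylase, the enzyme that makes histamine. Lpl encodes lipoprotein lipase, which releases fatty acids from circulating triglycerides and is a known target of PPARα in liver. Lgals1 and Lgals4 encode galectins, proteins that bind galactose-containing glycans, and Lgals4 is best known from the gut epithelium. Crip1 encodes a small LIM domain protein, also known from the intestine.

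In the rat assembly GRCr8 (RefSeq), Car3 lies at chr2:88491666-88501299, Hdc at chr3:134300628-134318704, Lgals4 at chr1:93248463-93260002, Lgals1 at chr7:112365695-112368801, Crip1 at chr6:138047801-138055672, Bhmt at chr2:26594852-26614429 and Lpl at chr16:25596205-25621928, so no 2 of them are neighbours. Promoter windows of the 250 bases before a start site were held for 4 of the 7 genes, and they are shown because Lgals4 and Crip1 moved together in the values below while Bhmt and Hdc did not follow them. The bases are in lower case, with matches on either strand in capitals to 3 motifs, which are the TATA box letters TATAAA, the CAAT box letters CCAAT and the GC box letters GGGCGG. These are chr3:134318705-134318954 (minus strand) for Hdc, chr1:93252035-93252284 (plus) for Lgals4, chr6:138053618-138053867 (plus) for the second start site of Crip1, and chr2:26614430-26614679 (minus) for Bhmt.
Hdc: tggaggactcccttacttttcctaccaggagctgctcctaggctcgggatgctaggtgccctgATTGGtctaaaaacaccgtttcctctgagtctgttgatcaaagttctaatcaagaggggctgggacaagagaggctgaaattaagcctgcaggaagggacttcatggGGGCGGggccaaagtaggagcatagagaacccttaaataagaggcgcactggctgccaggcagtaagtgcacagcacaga
Lgals4: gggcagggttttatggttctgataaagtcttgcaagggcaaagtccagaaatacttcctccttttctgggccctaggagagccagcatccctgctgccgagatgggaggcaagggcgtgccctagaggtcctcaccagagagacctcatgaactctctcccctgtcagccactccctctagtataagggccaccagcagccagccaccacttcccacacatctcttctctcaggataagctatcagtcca
Crip1: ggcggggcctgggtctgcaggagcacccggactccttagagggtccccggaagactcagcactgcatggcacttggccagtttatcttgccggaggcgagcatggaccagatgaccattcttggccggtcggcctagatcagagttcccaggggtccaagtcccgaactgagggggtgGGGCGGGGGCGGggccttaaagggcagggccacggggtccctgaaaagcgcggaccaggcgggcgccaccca
Bhmt: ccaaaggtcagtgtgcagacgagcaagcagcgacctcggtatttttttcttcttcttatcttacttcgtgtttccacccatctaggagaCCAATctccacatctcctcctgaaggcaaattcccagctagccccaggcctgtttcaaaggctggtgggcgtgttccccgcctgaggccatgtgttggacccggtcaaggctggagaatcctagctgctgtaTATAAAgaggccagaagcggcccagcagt
The Bhmt window held a TATA box match 29 bases before the start and a CAAT box match 161 bases before it. The Hdc window held a CAAT box match on the opposite strand and a GC box match, the second Crip1 window held GC box matches at 72 and 66 bases before the start, and the Lgals4 window and the first Crip1 window held none of the 3 motifs. Of the 33469 windows in the table, 12.9% held the TATA box letters, 34.0% those of the CAAT box and 30.5% those of the GC box, so each match is common and is only a description.

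Library totals ran from 5475419 to 11122665 counts (median 8680678), and levels are given in CPM, the count scaled to a common library total. A count of 3, taken as the floor, was worth 0.270 to 0.548 CPM. After the data were seen, 6 libraries were set apart: NM 10 mM replicate 3, NM 3 mM replicate 1, 1NP 10 mM replicate 3, NM 1 mM replicate 1 and NE 0.01 mM replicate 3 each had the lowest correlation of their own group (median r 0.855, 0.856, 0.874, 0.912 and 0.928), and NE 10 mM replicate 2 had counts in 21627 probes against a median of 13792. The other wells of NM 3 and 10 mM, at 0.922 to 0.926, were lower than that of NE 0.01 mM and were kept. Hepatocyte markers were high throughout, with a summed level of 12 genes of 9188.51 to 24864.1 CPM. The 8 mast cell markers, the cell type in which Hdc is best known, had a median sum of 0.257 CPM and reached 15.6 CPM in NE 10 mM replicate 2. The 7 probes were all kept by the filter on low counts in every fit.

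The control wells differed for each of the 7 genes and in both sets, with no overlap. Medium lay in plate row A and DMSO in row B of both sets, so vehicle and row cannot be told apart. Car3 stood at 70.3, 68.4 and 145 CPM in the medium wells of set 1 and at 6.63, 9.56 and 13.8 CPM in the DMSO wells. Its means were 94.4 ± 43.4 and 10.0 ± 3.62 CPM (SD, n = 3), a log2 difference of 3.24. In set 2 Car3 was at 100, 123 and 151 CPM in medium and 11.8, 20.2 and 10.7 CPM in DMSO. This gene had the widest gap of the 7 in both sets.

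Lgals4, Lgals1 and Crip1 were also the higher in medium, by smaller steps. Lgals4 stood at 41.5, 38.1 and 64.6 CPM in medium and 8.05, 13 and 14.6 CPM in DMSO of set 1. Lgals1 gave 37.3, 43.2 and 63.3 CPM against 13, 17.6 and 21.3 CPM, and Crip1 58.1, 57.4 and 92.8 CPM against 14.9, 18.7 and 27.2 CPM. The log2 differences of the means were 2.01, 1.47 and 1.78 in set 1 and 1.91, 1.53 and 1.91 in set 2, so the direction was the same in both sets and the sizes were similar.

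Bhmt, Hdc and Lpl were the lower in medium. Bhmt stood at 27, 38.7 and 21.1 CPM in medium and 175, 149 and 93 CPM in DMSO of set 1. Hdc was at 2.67, 2.00 and 2.16 CPM against 16.1, 21.5 and 24.2 CPM, and Lpl at 2.44, 6.01 and 2.96 CPM against 23.1, 18.9 and 10.9 CPM. Their log2 differences were -2.27, -3.18 and -2.21 in set 1 and -1.88, -2.76 and -2.90 in set 2. In set 2 the nearest approach of the controls for Bhmt was 25.8 CPM in medium and 45.8 CPM in DMSO replicate 5.

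The same lack of overlap between medium and DMSO was found for 27.6% of the 11395 probes with at least 1 CPM in set 1 and 39.0% of 11446 in set 2. By edgeR's quasi-likelihood test 3.49% of all probes were called between medium and DMSO in set 1 and 15.1% in set 2, where Bhmt was not among them. Since the 7 genes were picked on this contrast, nothing about them is read from these shares. The sum of the hepatocyte markers moved with the controls too: it was 22547.5 to 24864.1 CPM in DMSO of set 1 and 10605.6 to 13684.4 CPM in medium. The single markers moved unevenly. From medium to DMSO of set 1 the mean of Fga went from 1658 to 6048 CPM, but that of Asgr1 from 7.28 to 6.89 CPM. In set 2 Asgr1 went from 5.46 to 5.03 CPM and Hnf4a from 267 to 243 CPM, while the other markers were higher in DMSO. The part of these markers in the difference was not tested. In such bulk wells fewer cells of a type and less RNA per cell cannot be told apart.

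**Figure D1:**
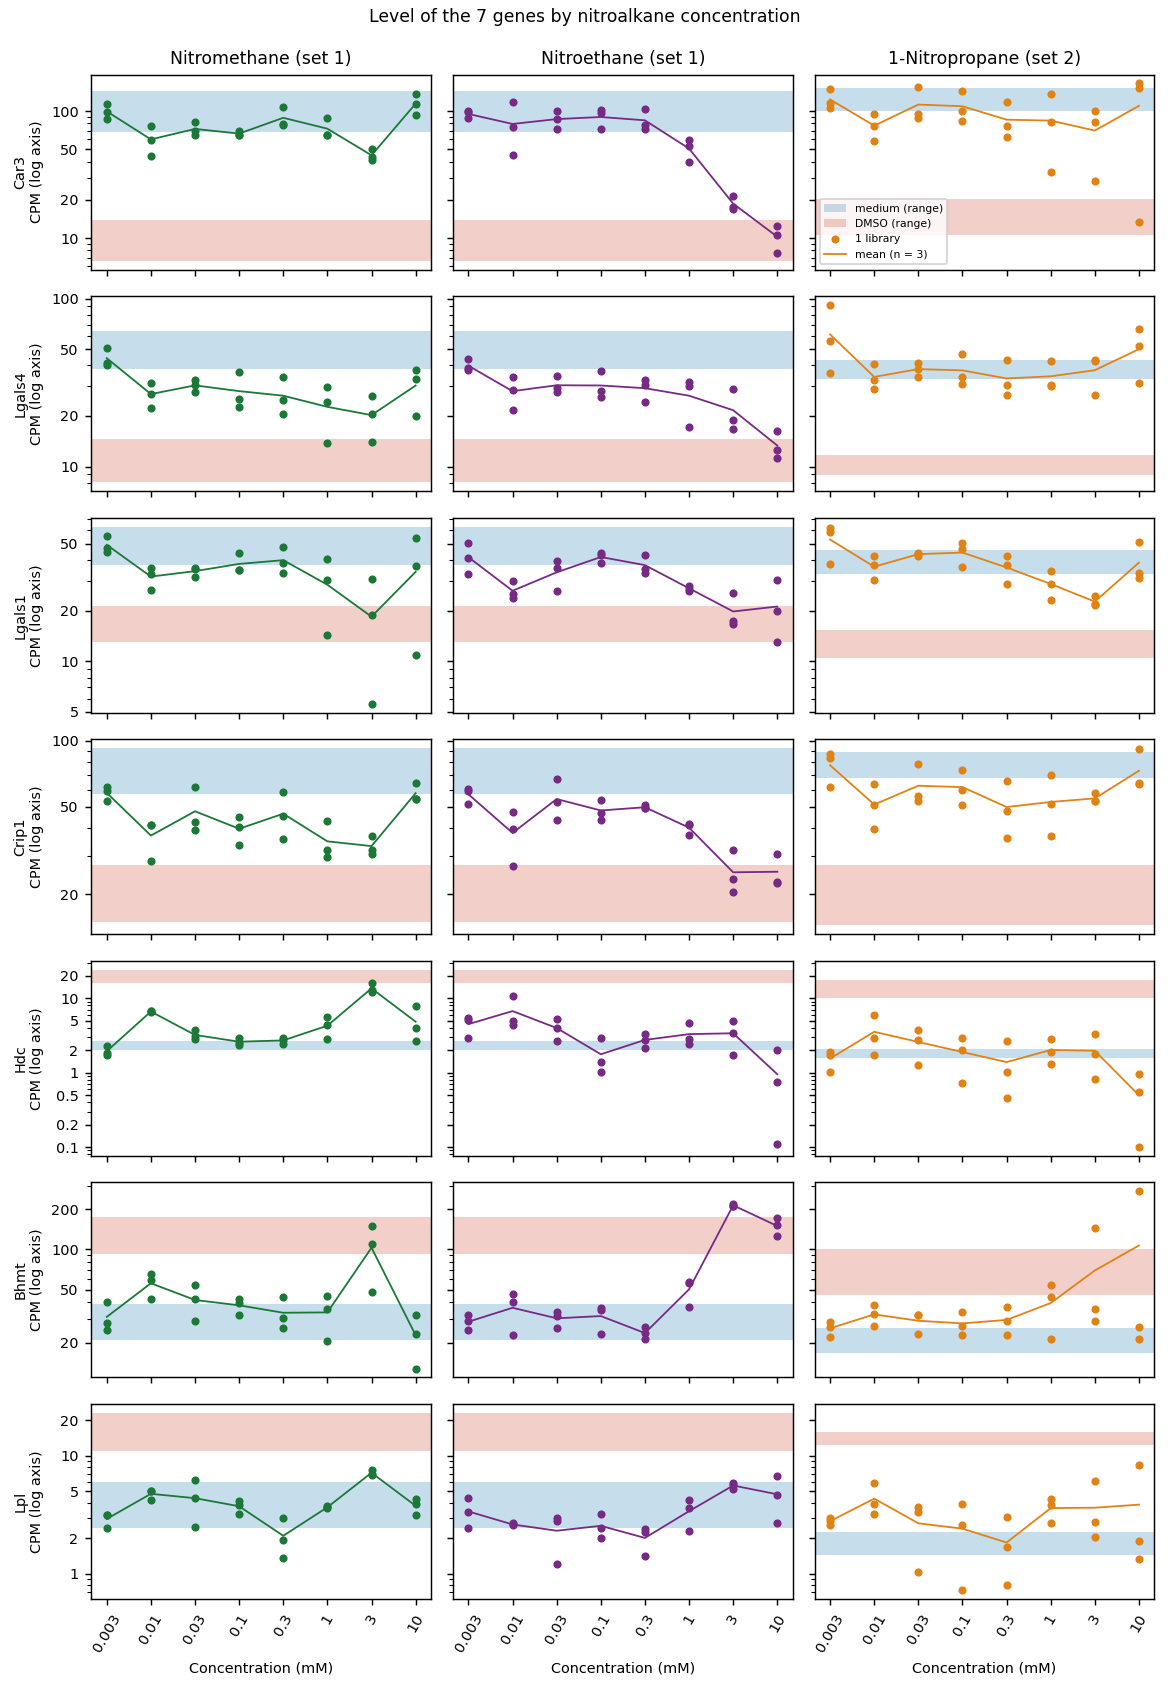
Level of each gene in CPM (log axis, rows) by nitroalkane concentration in mM (columns are NM, NE and 1NP). Points are libraries, lines join group means (n = 3), the blue and red bands span the medium and DMSO wells of the same set, and the 1 library with an Hdc count of 0 is drawn at 0.1 CPM. At NE 3 and 10 mM Car3 fell towards the DMSO band and Bhmt rose to it, while Hdc at NE 10 mM lay at or under the medium band.

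At the lowest nitroalkane concentrations the 7 genes stood at or near the medium level. At 0.003 mM Car3 was at 87.0, 114 and 97.6 CPM in the NM wells, 87.9, 99.4 and 97.7 CPM in the NE wells and 150, 115 and 106 CPM in the 1NP wells, all above every DMSO well. Bhmt was at 40.5, 28.2 and 24.8 CPM for NM, at 29.0, 24.8 and 32.2 CPM for NE, and at 22.1, 28.7 and 26.0 CPM for 1NP, all below every DMSO well. Over the 4 low concentrations of 0.003 to 0.1 mM, Car3 ran from 44.0 to 114 CPM for NM, from 45.1 to 118 CPM for NE, and from 58.4 to 155 CPM for 1NP. These 12 wells of each compound are the baseline of the tests that follow, and a compound's comparisons share them.

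Among the nitroalkanes, NE changed the largest number of the genes. Against the 4 low concentrations, NE at 10 mM changed 7 of 7 genes at an adjusted p under 0.05 (edgeR, Benjamini-Hochberg over all probes), with 5 lower and 2 higher, where 41.9% of all probes were called. The median absolute log2 change was 1.27 for the 7 genes and 0.443 over all probes. At 3 mM 4 of 7 were called, where 21.5% of all probes were, and the medians were 0.897 and 0.308. At 1 mM 0 of 7 were called by edgeR and 1 by DESeq2, where 0.328% of probes were, with 2 genes (Car3 and Bhmt) at an unadjusted p under 0.05. At 0.3 mM 0 of 7 were called by edgeR or DESeq2, none at an unadjusted p under 0.05, and 0.0% of all probes.

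Car3 fell with NE at 3 and 10 mM. Its wells were at 53.1, 39.9 and 59.2 CPM at 1 mM, 17.0, 21.3 and 17.7 CPM at 3 mM and 12.5, 7.59 and 10.7 CPM at 10 mM. At 3 and 10 mM each well lay below every low-concentration well, and at 10 mM within the range of the DMSO wells of the set. The log2 change was -2.19 ± 0.27 (SE) at 3 mM (adjusted p = 6.01e-09, edgeR) and -3.11 ± 0.29 at 10 mM (adjusted p = 3.66e-13), and -0.87 ± 0.24 at 1 mM, which did not pass (adjusted p = 0.108).

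Bhmt rose with NE. It was at 56.2, 57.2 and 36.9 CPM at 1 mM, 213, 212 and 218 CPM at 3 mM and 152, 126 and 171 CPM at 10 mM, against 22.6 to 46.4 CPM at the low concentrations. All wells at 3 and 10 mM lay above the low-concentration wells, and those at 3 mM above the DMSO wells as well. The log2 change was 2.81 ± 0.22 at 3 mM (adjusted p = 3.11e-14, edgeR) and 2.23 ± 0.23 at 10 mM (adjusted p = 1.38e-11).

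Hdc, which like Bhmt was high in DMSO, went the other way. It was at 1.72, 3.40 and 5.01 CPM at NE 3 mM and 0.743, 2.00 and 0.111 CPM at NE 10 mM, from 6, 15 and 1 counts. The last lies under the floor of 3 counts, and the low-concentration wells ran from 1.03 to 10.8 CPM and overlapped with those at 10 mM. The change at 10 mM was -2.12 ± 0.44 on the log2 scale (adjusted p = 9.11e-05, edgeR), and at 3 mM -0.13 ± 0.35, which did not pass. So at 10 mM NE Bhmt stood at the DMSO level and Hdc at or under the medium level in the same wells.

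Lpl moved less. It was at 5.67, 5.87 and 5.26 CPM at NE 3 mM, above every low-concentration well, and at 2.72, 4.66 and 6.77 CPM at 10 mM, which overlapped with them. The log2 change was 1.10 ± 0.29 at 3 mM (adjusted p = 0.00318, edgeR) and 0.78 ± 0.29 at 10 mM (adjusted p = 0.026). At 10 mM the call was lost without replicate 3, where the change was 0.34. None of these wells reached the DMSO range of 10.9 to 23.1 CPM.

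The galectins and Crip1 fell with NE by about 1 log2 unit. Lgals4 was at 12.5, 11.2 and 16.3 CPM at 10 mM, below every low-concentration well, and changed by -1.27 ± 0.28 (adjusted p = 0.000205, edgeR). Crip1 was at 22.8, 22.5 and 30.6 CPM and changed by -0.96 ± 0.22 (adjusted p = 0.000239), after -0.90 ± 0.22 at 3 mM (adjusted p = 0.00142). Its wells at both concentrations overlapped with the low-concentration wells, which ran from 26.9 CPM. Lgals1 was at 19.9, 13 and 30.5 CPM and changed by -0.73 ± 0.30 (adjusted p = 0.0431); the call was lost on leaving out any of 9 of the 15 libraries, and the change was -0.42 without replicate 2 at 10 mM, the library with counts in 21627 probes.

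NM moved 5 of the 7 genes at 3 mM, where 9.89% of all probes were called, and few at 10 mM. The median absolute log2 change at 3 mM was 0.891 for the 7 genes and 0.276 over all probes. Hdc was at 15.8, 12 and 12.8 CPM at 3 mM against 1.74 to 6.74 CPM at the low concentrations, with no overlap, a log2 change of 2.06 ± 0.29 (adjusted p = 1.47e-06, edgeR). These are the nitroalkane wells with the highest Hdc, the enzyme that makes histamine. At 10 mM it was at 2.66, 4.03 and 7.81 CPM, a change of 0.50 ± 0.33 that did not pass.

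Bhmt rose at NM 3 mM, at 47.8, 110 and 151 CPM, by 1.36 ± 0.24 (adjusted p = 0.000114, edgeR); replicate 1 overlapped with the low-concentration wells, which reached 65.6 CPM. At 10 mM it was at 32.3, 23.1 and 12.8 CPM and was the 1 gene of 7 called, where 9.8% of all probes were, with a change of -0.88 ± 0.28 (adjusted p = 0.0364). That call was lost on leaving out any of 9 of the 15 libraries, and the change was -0.58 without replicate 3 at 10 mM, a library that stood apart. The Bhmt estimates thus had opposite signs at the 2 concentrations, but the call at 10 mM did not hold in most of these fits. The 10 mM well at 32.3 CPM lay within the range of the low-concentration wells, 24.8 to 65.6 CPM.

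Lpl rose at NM 3 mM, at 6.93, 7.01 and 7.58 CPM, all above the low-concentration wells, by 0.89 ± 0.27 (adjusted p = 0.0294, edgeR). This call was lost without NM 0.03 mM replicate 3 (0.81), NM 3 mM replicate 1 (0.95) or NM 3 mM replicate 3 (0.85). Car3 was at 40.9, 43.9 and 50.0 CPM and changed by -0.70 ± 0.23 (adjusted p = 0.046), a call lost on leaving out any of 12 of 15 libraries, with changes of -0.79 to -0.60. Lgals1 was at 5.58, 18.8 and 30.9 CPM and changed by -1.0 ± 0.30 (adjusted p = 0.0281). Without NM 3 mM replicate 1, which stood apart, the Lgals1 change was -0.57, and without replicate 2 it was -1.01; both ended the call. Leaving out all 6 libraries that stood apart left 2 of 7 genes called at NM 3 mM.

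Car3 at NM 10 mM was at 92.6, 137 and 114 CPM, back in the range of the medium wells, with a change of 0.59 ± 0.21 (adjusted p = 0.0653, edgeR). It was the group with the highest mean Car3 of the 24 in set 1. At NM 0.3 and 1 mM 0 of 7 genes were called by edgeR or DESeq2, and 0.0% of all probes by edgeR. At an unadjusted p under 0.05 there was 1 gene (Lpl) at 0.3 mM and 0 at 1 mM.

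1NP was measured in set 2, and its wells at 10 mM disagreed. Bhmt was at 21.3, 26.3 and 273 CPM and Car3 at 151, 165 and 13.5 CPM, so replicate 3 stood at or past the DMSO level for both genes and the other 2 wells at the medium level. Lpl showed the same split, at 1.35, 1.90 and 8.32 CPM. Hdc was at 0.945, 0.543 and 0 CPM, from 7, 4 and 0 counts; the count of 0 allows up to 0.352 CPM by counting error alone.

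At 1NP 10 mM 2 of 7 genes were called, where 7.58% of all probes were. Bhmt changed by 1.98 ± 0.51 (adjusted p = 0.0236, edgeR), and by -0.27 without replicate 3, so this call and its direction rest on 1 library that stood apart. Hdc changed by -2.19 ± 0.67 (adjusted p = 0.0464), a call lost on leaving out any of 10 of the 15 libraries, with -1.59 without replicate 3. With the replicate number as a block, 0 of 7 were called at this concentration.

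At 1NP 3 mM Lgals1 was the 1 gene called, where 0.215% of all probes were. Its wells were at 24.4, 22.0 and 21.5 CPM, below every low-concentration well (30.2 to 61.7 CPM), with a change of -0.92 ± 0.18 (adjusted p = 0.0286, edgeR); the call was lost on leaving out any of 6 of the 15 libraries, with changes of -0.92 to -0.89. Bhmt was at 29.1, 35.5 and 144 CPM there, again with replicate 3 apart, and Car3 at 99.8, 82.7 and 28.3 CPM with replicate 3 the lowest. At 0.3 and 1 mM 0 of 7 were called by edgeR or DESeq2, and 0.0% of all probes by edgeR. Lgals1 at 1 mM was the 1 gene at an unadjusted p under 0.05, and at 0.3 mM there was none.

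**Figure D2:**
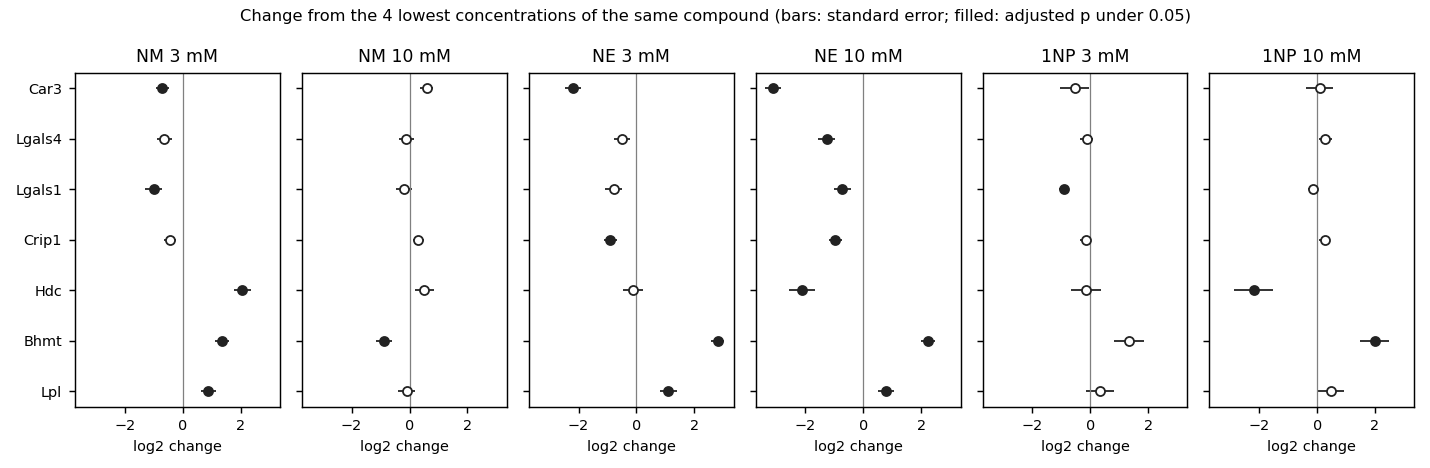
Log2 change of each gene from the 4 lowest concentrations of the same compound, at 3 and 10 mM of NM, NE and 1NP; points are edgeR estimates, bars standard errors, and filled points passed an adjusted p under 0.05. The panel of NE 10 mM has 7 filled points, that of NM 10 mM has 1, and Hdc lies right of 0 at NM 3 mM and left of 0 at NE 10 mM.

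NE, which has 1 carbon more than NM, was set against NM at each of 8 matched concentrations within set 1. Car3, Hdc and Bhmt differed at the 2 highest. At 3 mM 3 of 7 genes were called, where 6.03% of all probes were: Car3 by -1.20 ± 0.30 (adjusted p = 0.00831, edgeR), Hdc by -1.91 ± 0.42 (adjusted p = 0.00227) and Bhmt by 1.11 ± 0.32 (adjusted p = 0.0279), as NE minus NM on the log2 scale. The Bhmt call was lost without any NE 3 mM well (1.09 to 1.12) or without NM 3 mM replicate 1 (0.75), and 0 of 7 were called in a fit of these 6 libraries alone. For the other 4 genes the 95% intervals at 3 mM were -0.47 to 0.80 for Lgals4, -0.58 to 0.86 for Lgals1, -0.82 to 0.19 for Crip1 and -0.99 to 0.42 for Lpl.

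At 10 mM 5 of 7 genes differed between NE and NM, where 32.5% of all probes did. Car3 was lower with NE by -3.41 ± 0.32 (adjusted p = 9.4e-13, edgeR), Hdc by -2.35 ± 0.50, Lgals4 by -1.13 ± 0.33 and Crip1 by -1.13 ± 0.26, and Bhmt was higher by 2.77 ± 0.35 (adjusted p = 6.53e-09). For Car3 and Bhmt the 3 NE wells and the 3 NM wells did not overlap. In a fit of these 6 libraries alone the calls of Hdc (-2.34, adjusted p = 0.100) and Lgals4 (-1.13, adjusted p = 0.0606) were lost. For Lgals1 the interval was -1.32 to 0.08 and for Lpl -0.35 to 1.12, so a difference of either sign is within them. At 0.003 to 0.3 mM 0 of 7 genes were called by edgeR or DESeq2, and 0.0% of all probes by edgeR; at 1 mM it was 0 of 7 and 0.00782%. Hdc at 0.003 mM and Lpl at 0.03 mM were the 2 cases at an unadjusted p under 0.05.

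The 10 mM effects, each against the compound's own low concentrations, were also compared in 1 fit over both sets. NE differed from NM in 5 of 7 genes, where 28.3% of all probes did, among them Car3 by -3.71 ± 0.51 and Bhmt by 3.11 ± 0.57. The Lgals4 difference of -1.16 lost its call without NE 10 mM replicate 2 (-0.98). 1NP differed from NE in 3 of 7, where 8.17% did: Car3 by 3.21 ± 0.50, Lgals4 by 1.56 ± 0.36 and Crip1 by 1.23 ± 0.29. The 1NP changes of these 3 genes were 0.08 ± 0.47, 0.28 ± 0.22 and 0.26 ± 0.19, none of which passed. The interval of the difference between 1NP and NE was -1.34 to 1.22 for Hdc and -1.31 to 0.80 for Bhmt. The Bhmt interval rests on 1NP 10 mM replicate 3, at 273 CPM against 21.3 and 26.3 CPM in the other wells. Without that library the 1NP change of Bhmt was -0.27, and 5 of 7 genes were called between 1NP and NE.

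1NP differed from NM in 2 of 7, where 4.86% of all probes did: Hdc by -2.69 ± 0.69 and Bhmt by 2.85 ± 0.57. Both calls were lost without 1NP 10 mM replicate 3, where the differences were -2.08 and 0.62, and that of Hdc also without NM 10 mM replicate 3 (-2.22). The set and the compound cannot be told apart in the comparisons with 1NP.

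The reference compounds of set 1 were compared with the NM and NE wells of the 4 low concentrations, 24 libraries. No label states if the reference wells held DMSO. Here and for WY in set 2, an effect of the vehicle and one of the compound therefore cannot be told apart. CITCO at 20 µM changed 7 of 7 genes, where 12% of all probes were called, each in the direction of DMSO. Its Car3 wells were at 17.0, 7.25 and 12.8 CPM, within or close to the DMSO range, and changed by -2.70 ± 0.27 (adjusted p = 5.49e-11, edgeR). Lgals4 was at 7.17, 4.51 and 6.48 CPM, all below the lowest DMSO well, and changed by -2.39 ± 0.30. Crip1 and Lgals1 changed by -1.80 ± 0.23 and -1.39 ± 0.30. Bhmt was at 126, 187 and 113 CPM and rose by 2.00 ± 0.21, Lpl by 2.06 ± 0.23 and Hdc by 1.80 ± 0.26.

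CITCO at 10 µM moved 6 of 7 genes, where 1.53% of all probes were called, by smaller steps: Car3 by -1.54 ± 0.24, Lgals4 by -1.39 ± 0.27, Crip1 by -0.81 ± 0.21, Hdc by 1.42 ± 0.28, Lpl by 1.57 ± 0.24 and Bhmt by 0.84 ± 0.23. The median absolute change of the 7 was 1.39, against 0.140 over all probes, and at 20 µM 2.00 against 0.231. Without CITCO 10 µM replicate 1 the count fell to 3, with Lgals4 (-1.20), Crip1 (-0.70) and Bhmt (0.76) not called. Crip1 was also lost without replicate 2 (-0.71), and Bhmt on leaving out any of 15 of the 27 libraries. The 2 concentrations were compared with the same low-concentration wells and not with each other.

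BaP at 50 µM changed 6 of 7 genes, where 16.0% of all probes were called. Car3 was at 11.9, 12.1 and 27.3 CPM and fell by 2.27 on the log2 scale (SE 0.26), and Bhmt was at 120, 130 and 79.1 CPM and rose by 1.59 ± 0.21. Hdc, at 6.92, 9.43 and 12.1 CPM, rose by 1.40 ± 0.27 and Lpl by 1.38 ± 0.24, while Lgals4 and Crip1 changed by -1.37 ± 0.27 and -0.83 ± 0.20. Without BaP replicate 2 the Crip1 change was -0.59 and not called. Lgals1 did not pass (-0.48 ± 0.28, adjusted p = 0.276, edgeR).

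Rifampin at 40 µM changed 4 of 7, where 2.78% of all probes were called. Car3, at 37.9, 28.6 and 26.3 CPM, changed by -1.43 ± 0.24, Lgals4 by -1.42 ± 0.28, Crip1 by -1.07 ± 0.21 and Lpl by 1.26 ± 0.25; without replicate 2 the Lpl change was 0.91 and not called. At 20 µM 0 of 7 were called by edgeR or DESeq2, where 0.117% of all probes were by edgeR. Car3 (-0.73 ± 0.22) and Lgals4 (-0.86 ± 0.26) were the 2 genes at an unadjusted p under 0.05, in the direction of DMSO.

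WY set the highest Lpl of each set, the lipase that PPARα is known to raise. In set 1 it was at 26.9, 34.7 and 20.2 CPM, a change of 2.98 ± 0.21 (adjusted p = 5.76e-17, edgeR), and in set 2 at 42.7, 25.3 and 23.7 CPM, a change of 3.41 ± 0.38 from the low 1NP concentrations (adjusted p = 2.76e-06). WY changed 3 of 7 genes in set 1, where 3.02% of all probes were called, and 5 of 7 in set 2, where 7.5% were; the titled and named amounts of set 2 differ. Car3 fell in both, by 1.56 (SE 0.24) and 1.97 (SE 0.56) on the log2 scale, the second lost on leaving out any of 7 of the 15 libraries (-2.11 to -1.77). Hdc rose in set 1 by 1.00 ± 0.29, lost without any 1 of the WY wells (0.87 to 1.14). In set 2 Lgals4, Lgals1 and Crip1 changed by -1.55 ± 0.26, -1.25 ± 0.18 and -1.27 ± 0.21, and Bhmt by 0.62 ± 0.56, which did not pass.

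**Figure D3:**
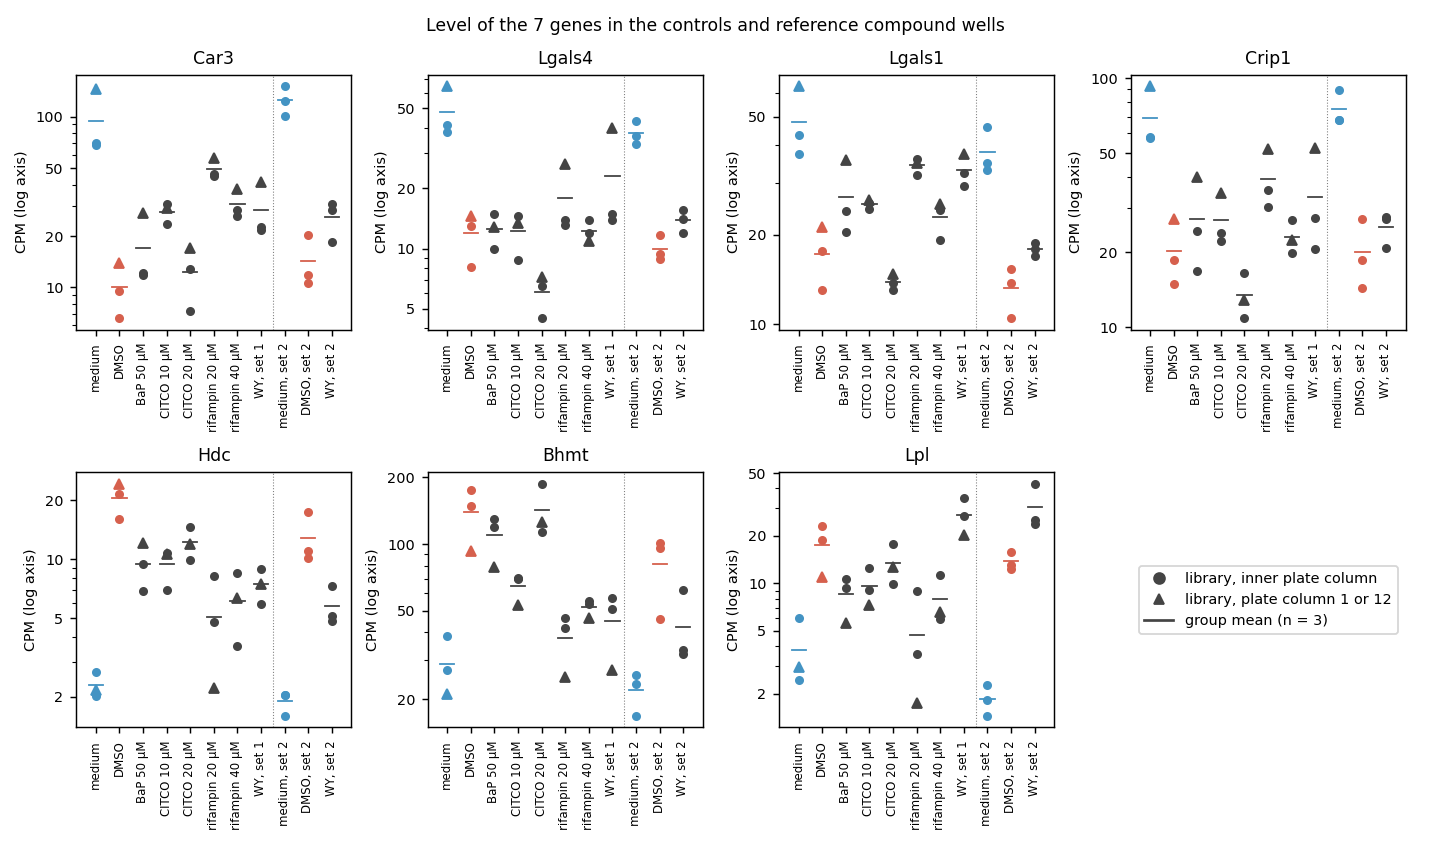
Level of each gene in CPM (log axis) in the medium (blue), DMSO (red) and reference compound (grey) wells of set 1, left of the dotted line, and set 2; points are libraries, triangles those in plate column 1 or 12, and bars group means (n = 3). CITCO at 20 µM lies below the DMSO wells for Lgals4 and within or close to their range for Car3, and WY lies in or above the DMSO range for Lpl.

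To place single wells, each gene's log2 level was set on a scale where 0 is the medium mean and 1 the DMSO mean of the set, and a gene counts as nearer DMSO above 0.5. All 3 CITCO 20 µM wells had 7 of 7 genes nearer DMSO. The BaP wells had 4 to 7, CITCO 10 µM 4 to 7, rifampin 40 µM 3 to 6, WY in set 1 2 to 5, rifampin 20 µM 0 to 4, and WY in set 2 had 6 in each well. Of the 18 reference wells in set 1, 14 had at least 4 genes nearer DMSO and 6 had all 7.

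Among the nitroalkane wells most of those at low concentrations read as medium by this count of genes. At least 4 genes were nearer DMSO in 0 of 12 low NM wells, 1 of 12 low NE wells (NE 0.01 mM replicate 3) and 0 of 12 low 1NP wells. At 0.3 to 10 mM it was 2 of 12 for NM, 6 of 12 for NE and 1 of 12 for 1NP; with TMM scaling of the libraries the 1 low NE well and the 1 well of 1NP dropped out. The 6 NE wells were those at 3 and 10 mM, each with 4 or 5 genes nearer DMSO. Their mix was not that of DMSO: at 10 mM the mean position was 0.979 for Car3 and 1.06 for Bhmt, but -0.585 for Hdc and 0.145 for Lpl. At NE 0.01 mM the mean position was 0.574 for Lgals1 and 0.488 for Crip1, but 0.0837 for Car3 and -0.185 for Lpl.

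The other probes that the controls separated gave a similar order in set 1. Of 440 other probes called between medium and DMSO, 84.3% to 91.8% were nearer DMSO in the CITCO 20 µM wells, 72.3% to 82.7% with BaP, 68.0% to 70.7% with NE 10 mM, 59.1% to 60.5% with NM 3 mM and 2.27% to 6.59% with NM 0.003 mM. In set 2 they did not follow the 7 genes as closely. Of 1831 other probes, 57.6% to 74.9% were nearer DMSO in the 1NP 0.01 mM wells, where 0 to 2 of the 7 genes were. In the 1NP wells the share was 11.6% to 19.7% at 0.003 mM, 50.4% to 64.3% at 0.03 mM and 17.0% to 57.3% at 0.1 mM. At these 3 concentrations 0 of the 7 genes were nearer DMSO in each well.

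Hepatocyte markers were not at the DMSO level in each group whose wells read as DMSO. Their sum was 21172.0 to 24839.6 CPM with CITCO 20 µM and 18758.7 to 21617.4 CPM with BaP, towards that of DMSO, but 10844.6 to 14274.4 CPM with NE 10 mM, in the range of medium. At NM 3 mM it was 19960.3 to 21349.9 CPM and at NE 3 mM 16509.8 to 21322.0 CPM. What part these genes' shared level had in the positions was not tested.

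**Figure D4:**
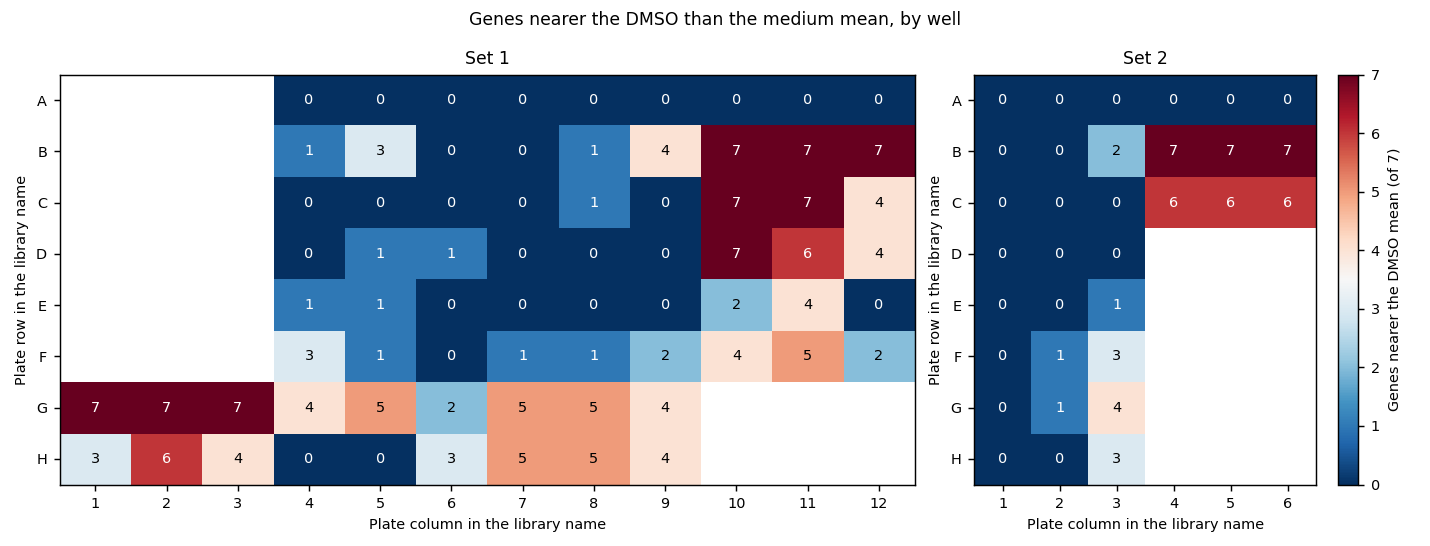
Number of the 7 genes nearer the DMSO than the medium mean in each well, by the plate row and column in the library name, for set 1 and set 2. The 3 wells of CITCO 20 µM (row G, columns 1 to 3 of set 1) read 7 each, row A reads 0 throughout, and the wells of NE at 3 and 10 mM (rows G and H, columns 7 to 9) read 4 or 5.

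Concentration and plate row cannot be told apart, since each concentration filled 1 row, from A for 0.003 mM to H for 10 mM. Medium was in row A and DMSO in row B, so the same holds for the controls. Of the 4 low concentrations, 0.01 mM in row B stood nearest DMSO for each nitroalkane. The median position of its middle well was 0.397 for NM, 0.321 for NE and 0.233 for 1NP. The wells of row A (0.003 mM) were compared with rows B to D (0.01 to 0.1 mM), a comparison chosen after the values were seen. By edgeR 0 of 7 genes were called for NM, NE or 1NP, and 0.0% of all probes for each; DESeq2 called 0 for NM and NE and 1 for 1NP. With NM, 4 of the 7 (Car3, Hdc, Lgals4 and Crip1) had an unadjusted p under 0.05, with changes such as 0.59 ± 0.22 for Car3 and 0.63 ± 0.25 for Lgals4, both towards medium in row A. With NE there were 0 and with 1NP 1 (Lgals4, 0.72 ± 0.22, adjusted p = 0.118, edgeR).

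Plate columns moved with the genes too, a pattern noticed in the values. In 16 groups, 2 of them medium and DMSO of set 1, 1 of the 3 wells lay in the outer column 1 or 12. That well had the highest Car3 of its group in 14 of 16, which 1.48% of 11549 probes match or exceed in either direction. It had the highest Lgals4, Lgals1 and Crip1 in 13 groups each (3.15% of probes match each of them) and the lowest Bhmt in 15 (0.485%). For Lpl it was the lowest in 10 (21.2%), and for Hdc the highest in 4 and the lowest in 5 (97.7%). The outer well thus mostly read further towards medium than the rest of its group for Car3, Lgals4, Lgals1, Crip1 and Bhmt. Over the 14 treated groups alone it was highest in 12 for Car3 and in 11 each for Lgals4, Lgals1 and Crip1, and lowest in 13 for Bhmt. The shares of probes above are over all 16 groups, including the 2 of the controls from which the genes were chosen. No share over all probes was computed for the treated groups alone, so these counts are only a description. Without the outer wells the calls of Lgals1 at 1NP 3 mM (-0.87), Bhmt with CITCO 10 µM (0.96), Hdc with WY in set 1 (0.97) and Car3 with WY in set 2 (-1.74) were lost among the comparisons that hold such wells. Among the 1NP wells replicate 3, in column 3, had the median position nearest DMSO at every concentration. In columns 1, 2 and 3 it was 0.116, 0.233 and 0.451 at 0.01 mM, and -0.094, 0.024 and 0.131 at 10 mM.

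In a fit with a term for the outer column, 3 of 7 genes passed over the reference compounds of set 1, where 5.05% of all probes did: Car3 by 0.61 ± 0.11 (adjusted p = 0.00682, edgeR), Bhmt by -0.55 ± 0.10 (adjusted p = 0.00718) and Crip1 by 0.56 ± 0.15 (adjusted p = 0.0443), the last lost on leaving out any of 12 of the 18 libraries (0.41 to 0.58). Over the 1NP wells 0 of 7 passed by edgeR and 1 by DESeq2, where 0.0498% of all probes did by edgeR, with 5 genes at an unadjusted p under 0.05. Among them was Lgals4 (0.51 ± 0.10, adjusted p = 0.0636). NM and NE filled inner columns, so their comparisons do not hold an outer well.

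In the order of the 24 group means of set 1, controls included, neighbouring groups overlapped in 21 to 23 of the 23 pairs, depending on the gene, and in 8 to 10 of 10 pairs in set 2. Car3 was highest with NM 10 mM and lowest with DMSO in set 1. Bhmt was highest with NE 3 mM and lowest with NM 10 mM, and Hdc highest with DMSO and lowest with NE 10 mM. Lgals4, Lgals1 and Crip1 were all lowest with CITCO 20 µM. In set 2 the 4 genes high in medium were all lowest with DMSO.

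Over the 31 groups that are no controls, the mean log2 levels of Lgals4 and Crip1 went together (r = 0.94), as did those of Car3 and Crip1 (r = 0.89). Car3 and Bhmt were opposed (r = -0.84), while Hdc had an r of 0.63 with Lpl, -0.50 with Lgals4, -0.49 with Crip1, -0.48 with Lgals1, -0.26 with Car3 and 0.15 with Bhmt. These are descriptions over groups that share plates and libraries. Among 7613 probes the pattern most like that of Car3 was Ano2 (r = 0.94), then Loxl2 (0.93) and Ptges3l (0.93). For Bhmt it was Bhmt2 (0.96), then Dmgdh (0.95) and Tdo2 (0.94), and for Lpl Acadvl (0.91), Adtrp (0.88) and Cyp4a1 (0.88).

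Among the genes most like Hdc were C3 (r = 0.87) and Plagl1 (0.86), and those most like Lgals1 were Galnt10 (0.87), Pmaip1 (0.82) and Tpm2 (0.82). Lgals4 and Crip1 shared Lamb3 (0.93 and 0.86) and Ptges3l (0.82 and 0.86) among their nearest 3. The other was Igfbp6 (0.86) for Lgals4 and Loxl2 (0.85) for Crip1.

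The other genes of the pathways were read from fixed lists, at the same contrasts and backgrounds as above. Of 15 other probes of the methionine and homocysteine cycle, the pathway of Bhmt, 9 rose and 1 fell at NE 10 mM (41.9% of all probes called). At NE 3 mM 9 rose and 2 fell (21.5%), at NM 3 mM 5 rose (9.89%), and at NM 10 mM 1 rose and 2 fell (9.8%). Bhmt2, a close relative of Bhmt, changed by 2.46 at NE 10 mM and 2.30 at NE 3 mM, by 1.25 at NM 3 mM and by -0.61 at NM 10 mM. Mat1a, which makes S-adenosylmethionine, and Ahcy, which splits S-adenosylhomocysteine, changed by 2.22 and 1.63 at NE 10 mM. Gamt, a creatine-synthesis methyltransferase, changed by 0.87 at NM 3 mM and 1.19 at NE 3 mM. With CITCO 20 µM 6 of the 15 rose and with BaP 5, among them Bhmt2 by 1.75 and 1.68. Whether the Bhmt probe also reads Bhmt2 RNA was not tested, as probe sequences were not used here.

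The relatives of the galectins and of Crip1 changed about as often as all probes at NE 10 mM. Of 5 other probes in the galectin list 2 fell there, where 41.9% of all probes were called, and 3 of 5 fell with CITCO 20 µM. At NE 10 mM these were Lgals3, by 1.03 on the log2 scale, and Lgals3bp, by 0.89. The latter encodes a galectin-binding protein and not a galectin. At NE 3 mM Lgals3 fell by 1.23 and Lgals3bp by 0.71 while Lgalsl, a galectin-like protein, rose by 0.53, and at NM 3 mM Lgals3 fell by 0.64. Of 4 other CRIP and CSRP probes, Csrp2 fell by 1.14 and Crip2 rose by 0.85 at NE 10 mM. Krt19 and Sox9, markers of bile duct cells, were lower at NE 10 mM by 1.89 and 1.81. The summed level of the cholangiocyte markers was 224 to 287 CPM there against 627 to 737 CPM in medium of set 1. That sum was mostly Sox9 and Epcam, with means of 436 and 184 CPM over all libraries. In the same list 3 of 7 probes, those of Krt7 and Cftr, averaged under 0.5 CPM. The presence of bile duct cells was not shown by this. Any part of such cells in the fall of Lgals4, Lgals1 and Crip1 was not tested.

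Of 11 other carbonic anhydrase probes 4 rose and 1 fell at NE 10 mM, near the share of 41.9% over all probes, while Car3 itself fell. The 1 that fell was Car2, the widespread cytosolic form, by 0.68 on the log2 scale, and with CITCO 20 µM Car2 fell by 1.39. Of 12 other probes for partners of lipoprotein lipase 2 rose and 8 fell at NE 10 mM, where Lpl rose. Apoe, an apolipoprotein, changed by -1.98, and Sel1l, which helps the lipase leave the endoplasmic reticulum, by 1.95. In the list for histamine only Hdc itself had enough counts to be tested.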

How the data were processed

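TempO-Seq was run on 105 wells of rat hepatocytes. The authors deposited raw counts per detector probe, with no normalization; per the submitters' processing notes FastQC, Bowtie, R 3.5.3 and DESeq2 1.28.1 were used, with no role stated, and the build is not given in the sources used here. The labels call the panel human, while its symbols are written as rat symbols. Nitroalkane units follow the protocol (mM) rather than the titles (µM), and DMSO, titled 0.5 µM, is the protocol's vehicle. A formaldehyde control was not analysed here. Groups came from the sample titles, and plate wells from the library names.

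CPM is the count divided by the library total and scaled to a common total (1000000). Tests used edgeR 4.0.16 in R 4.3.3 (filterByExpr with a minimum count of 10 and total of 15, TMM, glmQLFit robust, glmQLFTest), with Benjamini-Hochberg adjustment over all probes kept, in 1 fit of the 66 libraries of set 1 that are no controls (12786 probes), 1 of the 27 of set 2 (12100) and 1 of all 93 (12931). A probe was called at an adjusted p under 0.05. The SE is the size of the log2 change over the root of the F statistic, and 95% intervals use the normal quantile. Positions used log2 levels with 0.5 counts added. The fits were tested on simulated data. Any 2 libraries of a group differed by more than counting error (lowest chi-square per degree of freedom 2.88), so none was a copy of another in its group. Libraries of different groups were not compared in this way.

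All 7 genes are named. Of each family list at most 3 probes per comparison are named, those with the lowest p among called probes with a mean of at least 10 CPM, and for each gene the 3 probes with the most similar pattern, of which 1 is not reported here. The genes and lists were chosen with earlier results of these data known. Alternatives were DESeq2 1.42.0, library totals, no filter, a baseline of 0.003 to 0.03 mM, only the libraries compared, a replicate block and each library left out; leaving out the outer columns or the 6 libraries that stood apart, the row comparison and the column comparison were chosen after seeing the data.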

Additional observations from a re-analysis of the deposited data

Results flagged for a closer look

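The 10 mM effects of the 3 nitroalkanes, each measured from the compound's own low concentrations, differed between compounds by edgeR's test of the difference. Between NE and NM the log2 difference was -3.71 for Car3, -2.63 for Hdc, -1.16 for Lgals4, -1.28 for Crip1 and 3.11 for Bhmt. Car3 was lower and Bhmt higher than in each low-concentration well in 3 of 3 NE wells. Between 1NP and NM it was -2.69 for Hdc and 2.85 for Bhmt, and the Bhmt value rests on 1NP replicate 3, without which it was 0.62. Between 1NP and NE it was 3.21 for Car3, 1.56 for Lgals4 and 1.23 for Crip1. 1NP lay in set 2 and the others in set 1, so set and compound cannot be told apart there.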

How the results depend on the processing

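Of 72 calls on the 7 genes, 72 kept direction and call with DESeq2 and 72 with library totals; no filter kept 65 and ended 7, a baseline of 0.003 to 0.03 mM kept 65 and ended 4, only the libraries compared kept 58 and ended 11, no outer columns kept 64 and ended 5 (the comparisons of NM and NE hold no outer well), and leaving out the 6 libraries that stood apart kept 58, ended 10 and turned 1 (Bhmt at 1NP 10 mM, -0.27; leaving out single libraries it ran from -0.27 to 2.46). Counts of genes called moved as follows. No filter gave 3 at NM 3 mM (5 as reported), 0 at NM 10 mM (1), 1 at 1NP 10 mM (2) and 5 for the outer column over the reference compounds (3) and over 1NP (0). Only the libraries compared gave 0 at 1NP 10 mM, 0 between NE and NM at 3 mM (3), 3 between them at 10 mM (5), 1 with rifampin 20 µM (0), 0 between the 10 mM effects of 1NP and NM (2) and 3 for row A with NM (0). Without the 6 libraries it was 2 at NM 3 mM, 0 at NM 10 mM, 1 at NE 1 mM (0), 0 at 1NP 10 mM and 0 between 1NP and NM. Without outer columns it was 2 at NM 10 mM, 1 at NE 1 mM and 0 at 1NP 3 mM (1). Library totals gave 2 at NM 10 mM, the shorter baseline 1 at 1NP 10 mM, and DESeq2 1 at NE 1 mM, 1 for row A with 1NP and 1 for the outer column over 1NP. With TMM scaling 0 higher 1NP wells and 0 low NE wells read as DMSO in at least 4 genes, against 1 each. Leaving out single libraries gave 2 to 5 at NM 3 mM, 0 to 2 at NM 10 mM, 0 to 1 at NE 1 mM, 0 to 1 at 1NP 3 mM, 0 to 2 at 1NP 10 mM, 3 to 6 with CITCO 10 µM, 0 to 2 between 1NP and NM, 3 to 5 between 1NP and NE, and 0 to 2 for the outer column over 1NP. Beyond what the settings themselves remove, the cause was not tested.

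The replicate numbers were not taken as pairs, since not every same-number correlation exceeded 0.1. Of the 3 between NE and NM at most 1 did at any concentration (lowest -0.73). Over the 1NP wells 23 of 28 did for number 1, 7 of 28 for number 2 and 19 of 28 for number 3, and a number there is also a plate column. A fit with the replicate block kept 62 of 64 calls, ended 2, and gave 2 genes called at NM 10 mM, 0 at 1NP 10 mM and 1 for row A with 1NP; no paired analysis was possible for WY in set 2 because its wells are numbered 4 to 6. Depth limits Hdc most, with counts of 6, 15 and 1 at NE 10 mM.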
